A study of Gallus gallus with 8 samples.

Results

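Mitogen-activated protein (MAP) kinases and the dual-specificity phosphatases (DUSPs) that switch them off were followed in broiler liver early after lipopolysaccharide (LPS), a molecule of the outer membrane of Gram-negative bacteria. The members are the genes of the expression table whose name begins with MAPK, MAP2K, MAP3K, MAP4K or DUSP and a number, or with MAPKAP; MAP3K8 was left out. They are 55 of the 13427 genes in the table, 36 of the kinase families and 19 DUSPs. Livers came from 21-day-old broilers injected intraperitoneally with 1 mg/kg LPS from Escherichia coli, or with the same volume of phosphate-buffered saline as the control, and were taken 2 h later. Polyadenylated RNA was fragmented and sequenced as input and after immunoprecipitation (IP) with an antibody against N6-methyladenosine (m6A), the common methylation inside messenger RNA. Each treatment had 2 input and 2 IP libraries. No strain is given for the birds, and nothing in the labels says that a group's libraries come from different birds. The p-values therefore speak of the spread among libraries, which may be technical.

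MAP kinase signalling runs through a relay in which a MAP3K phosphorylates a MAP2K, which phosphorylates a MAP kinase on a threonine and a tyrosine. The ERK branch answers mainly to growth factors, and the JNK and p38 branches to stress and to inflammatory receptors such as the Toll-like receptors. DUSPs of the MAP kinase phosphatase class remove both phosphates again, and in mammalian macrophages several of them are induced by LPS itself and limit the response. All values here are RNA levels and RNA methylation; phosphorylation was not measured.

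Levels are in FPKM, fragments per kilobase of transcript scaled to the library's total, a unit corrected for gene length. Absolute depth is unknown, and the step between low values put the other libraries at 0.818 to 0.891 of the depth of control library 1. The listed hepatocyte genes other than CPS1 were abundant in every library. CPS1 was at 0.381 FPKM at most and was not tested. The 10 listed genes, among them albumin, summed to 69070 to 71760 FPKM in control and 77860 to 78400 in LPS input. The library totals were 539984 to 568721 FPKM. Of the 9 tested hepatocyte genes, 3 were called higher and 2 lower after LPS. All 7 tested macrophage genes were called lower after LPS, beside 31.4% of all tested genes. Their summed level was 776 to 845 FPKM in control and 386 to 410 in LPS input, and none of them was at 0. With libraries scaled to equal medians, 6 of the 7 were called lower, beside 15.9% of all tested genes. T and NK cell genes summed to 42.6 to 60.0 FPKM in control and 50.3 to 54.8 in LPS input. However, IL7R rose while CD247, LCK and CD28 fell, and the list median was −0.52 on the log2 scale. At equal medians 2 genes of this list were called higher and 0 lower. The 6 matched heterophil genes summed to 66.4 to 102 FPKM in control and 574 to 1013 in LPS input, of which the lipocalin Ex-FABP, the gene of the list called higher, made up 432 and 958. The 8 matched thrombocyte genes summed to 15.4 to 22.6 FPKM in control and 100.1 to 127.9 in LPS input, where the chemokine CCL4, THBS1 and ITGB3 were higher. The part of these cells in the changes below was not tested, and in whole liver fewer cells of a type and less RNA per cell cannot be told apart.

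Every tier had called members, beside 10.7% of all tested genes called higher and 31.4% called lower. Of 7 tested scaffolds and downstream kinases 2 were called, and of 8 tested atypical phosphatases 3, all of them lower. With libraries scaled to equal medians, each of these 2 groups also had 1 rise. The other tiers had calls in both directions before scaling. The members that rose include the stress kinase phosphatases DUSP8, DUSP10 and DUSP16 and the p38 kinases MAPK11 and MAPK14. Those that fell include the JNK genes MAPK8 and MAPK9, the JNK scaffold MAPK8IP1 and the atypical phosphatases DUSP14, DUSP15 and DUSP19. Of the 55 members, 47 had a mean of at least 1 FPKM and were tested. Of these, 9 were higher and 12 lower after LPS (limma on log2(FPKM + 1), Benjamini-Hochberg adjusted p under 0.05 over 9484 genes, two-sided). That is 19.1% and 25.5% of the tested members, beside 10.7% and 31.4% of all tested genes. The median log2 fold change was −0.32 over the members and −0.34 over all tested genes, and with libraries scaled to equal medians −0.04 and −0.06. On the equal-median scale, 12 members were higher and 9 lower, beside 14.2% and 15.9% of all genes. All 9 rises, and 9 of the 12 falls, were also called on that scale. Both LPS libraries lay above both controls for 15 members and below them for 25, which is 31.9% and 53.2% beside 18.4% and 55.8% of all genes. The number of rises depended on which libraries were used and was smallest without LPS library 2, where the share of all tested genes was not counted.

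**Figure D1:**
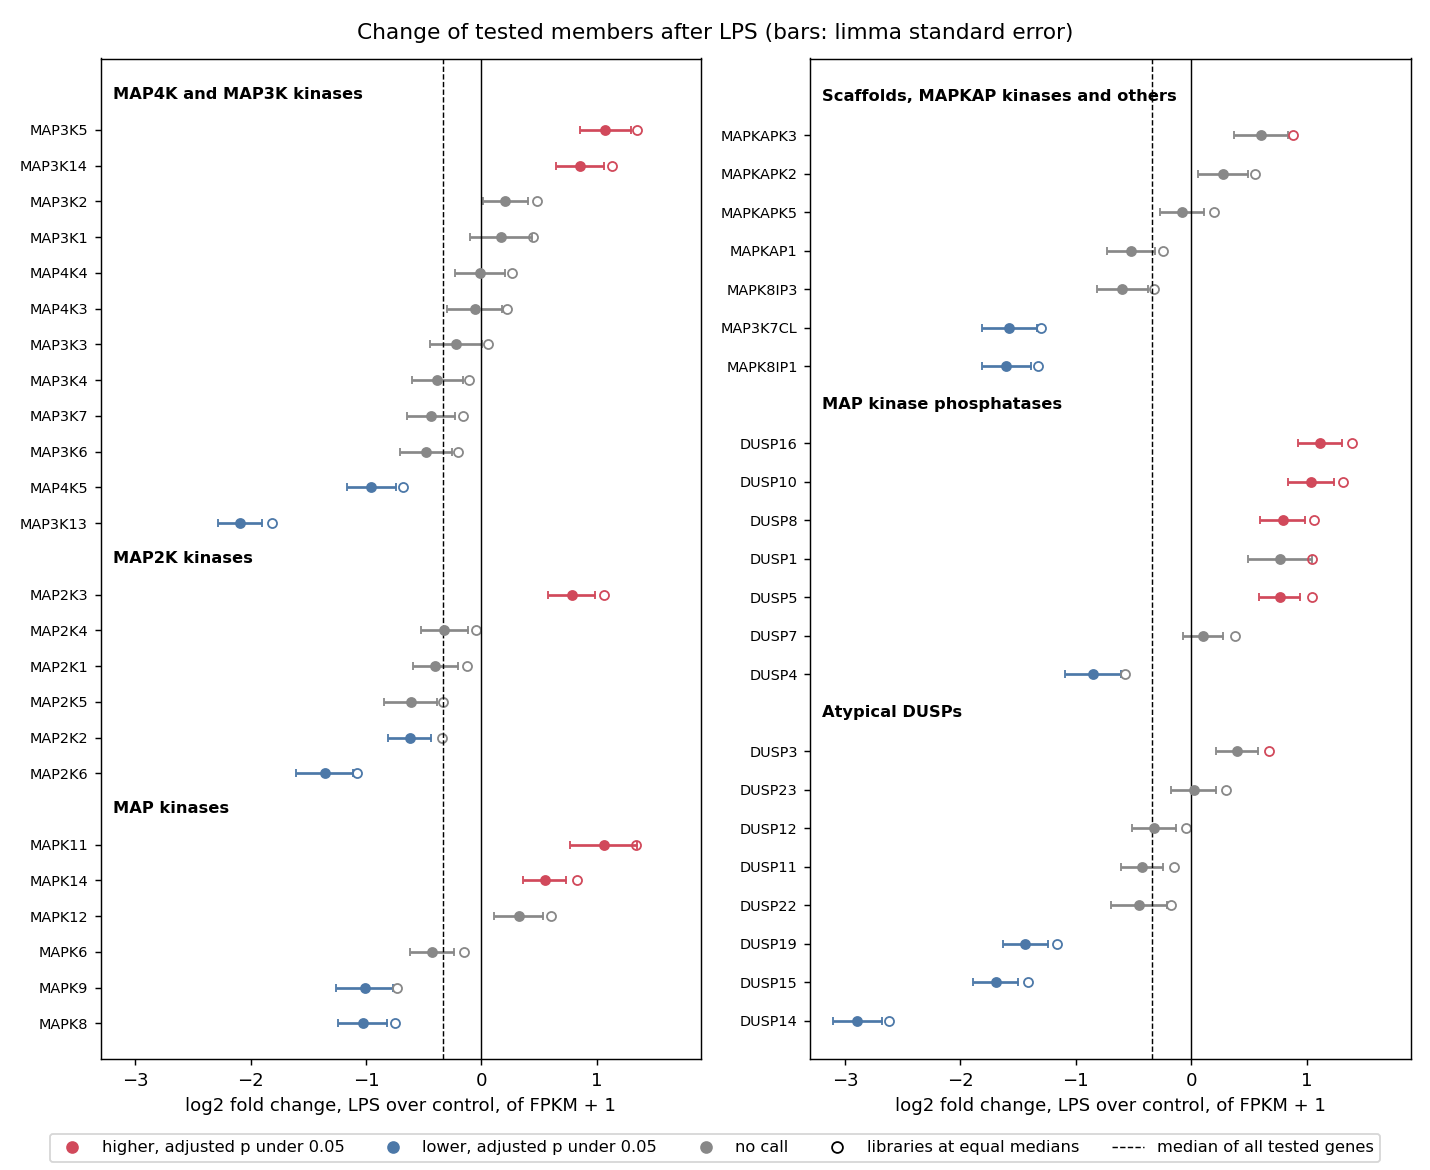
Log2 fold change of FPKM + 1 (LPS over control) of 46 of the 47 tested members, filled points with limma standard errors, and open points with libraries scaled to equal medians. The 4 MAP kinase phosphatases called higher lie between 0.77 and 1.11, and DUSP14 lies farthest to the left at −2.90; the dashed line is the median of all tested genes, −0.34.

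The kinases at the top of the relay moved in both directions. MAP3K5 (ASK1), which responds to oxidative stress, was at 4.97 and 3.37 FPKM in the control libraries and at 9.79 and 9.72 in the LPS libraries. It rose 2.34-fold in FPKM (log2 fold change 1.07, SE 0.22, limma adjusted p = 0.00677; 1.35 at equal medians). MAP3K14 (NIK), the kinase of the noncanonical NF-kB pathway, was at 9.63 and 11.8 FPKM in control and 17.6 and 22.9 in LPS libraries (0.86, SE 0.21, adjusted p = 0.0138). Both groups were clear of each other for these genes, with the LPS libraries on top. MAP3K14 lost its call when control library 1 (limma adjusted p = 0.0582) or LPS library 2 (0.0965) was left out.

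MAP3K13 (LZK), a mixed-lineage kinase upstream of JNK, showed the opposite. It stood at 19.1 and 22.9 FPKM in control libraries, the highest mean of its tier there, and at 4.21 and 4.09 in LPS libraries, a 5.06-fold fall (log2 fold change −2.09, SE 0.19, limma adjusted p = 0.000212). MAP4K5, a kinase at the entry to the relay, was at 8.56 and 6.76 FPKM in control and at 3.12 and 3.80 in LPS libraries (−0.95, SE 0.21, adjusted p = 0.00997). Its adjusted p was 0.0510 without LPS library 1. The remaining 8 tested MAP4K and MAP3K genes had no call and lay between −0.48 for MAP3K6 and 0.21 for MAP3K2. MAP3K7 (TAK1), which links Toll-like receptors to JNK and p38, was among them, with 18.9 and 14.9 FPKM in control and 13.5 and 10.9 in LPS libraries (−0.44, adjusted p = 0.122). Of the 12 tested genes of this tier, 2 rose and 2 fell, on both scales. Over all tested genes, 10.7% rose and 31.4% fell as deposited, and 14.2% and 15.9% at equal medians.

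In the MAP2K tier, the kinases that activate p38 parted. MAP2K3 was at 27.1 and 28.8 FPKM in control libraries and at 57.0 and 41.7 in LPS libraries, and rose (log2 fold change 0.78, SE 0.20, limma adjusted p = 0.0170). MAP2K6, its close relative with the same targets, was at 2.39 and 3.06 FPKM in control and at 0.638 and 0.275 in LPS libraries, a 5.96-fold fall in FPKM (−1.36, SE 0.24, adjusted p = 0.00406). That ratio rests on LPS values under 1 FPKM, and MAP2K6 passed the filter through its control libraries. MAP2K3 was already the more abundant in control liver, and the LPS libraries widened the gap. MAP2K3 lost its call when control library 1 (adjusted p = 0.0628) or LPS library 1 (0.116, with a change of 0.56) was left out.

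MAP2K2, which activates ERK, fell from 27.5 and 33.8 to 19.3 and 19.7 FPKM (log2 fold change −0.62, SE 0.18, limma adjusted p = 0.0288). It was not called at equal medians (−0.34, adjusted p = 0.209), nor when control library 2 (0.0978), LPS library 1 (0.0909) or LPS library 2 (0.0802) was left out. MAP2K1, the other ERK activator, was at 25.6 and 27.1 FPKM in control and 22.4 and 17.4 in LPS libraries (−0.40, adjusted p = 0.130). MAP2K4, which activates JNK and p38, was at 4.84 and 4.17 and at 3.58 and 3.23 FPKM (−0.32, adjusted p = 0.234). Both LPS libraries lay below both controls for 5 of the 6 genes of this tier, all but MAP2K3, beside 55.8% of all tested genes. At equal medians 1 of the 6 was called higher and 1 lower, beside 14.2% and 15.9% of all tested genes.

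Among the 7 tested MAP kinases themselves, 2 p38 genes rose and the 2 JNK genes of the table fell. Over all tested genes, 10.7% were called higher and 31.4% lower. At equal medians 2 of the 7 were called higher and 1 lower, beside 14.2% and 15.9% of all tested genes. MAPK14 (p38 alpha), the main p38 of inflammation, was at 9.99 and 11.8 FPKM in control libraries and at 16.5 and 16.2 in LPS libraries. It rose 1.5-fold in FPKM (log2 fold change 0.55, SE 0.18, limma adjusted p = 0.0448; 0.83 and 0.0122 at equal medians). MAPK11 (p38 beta) went from 5.15 and 3.28 to 12.5 and 7.43 FPKM, with the LPS libraries on top but far apart (1.06, SE 0.29, adjusted p = 0.0210). Their adjusted p-values were the largest among the 9 rises. MAPK14 was not called when control library 1 (adjusted p = 0.123), LPS library 1 (0.191) or LPS library 2 (0.178) was left out, nor with a constant prior variance (0.0530). MAPK11 was not called when control library 2 (0.102) or LPS library 1 (0.110) was left out. With no filter on low values, neither gene passed (0.0620 and 0.0653). MAPK12 (p38 gamma) was at 2.76 and 3.58 and at 4.48 and 3.91 FPKM, without a call (0.32, adjusted p = 0.256).

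MAPK8 (JNK1) was at 5.71 and 7.57 FPKM in control libraries and at 2.75 and 2.69 in LPS libraries, a 2.44-fold fall (log2 fold change −1.03, SE 0.21, limma adjusted p = 0.00737). MAPK9 (JNK2) was lower throughout, at 2.43 and 1.61 FPKM in control and at 0.581 and 0.394 in LPS libraries (−1.01, SE 0.25, adjusted p = 0.0142). With both LPS values under 1 FPKM, MAPK9 passed the filter through its control libraries. The fall of MAPK8 was called under every alternative tried, and that of MAPK9 missed the threshold at equal medians (0.0531) and when control library 1 was left out (0.0520). MAPK6 (ERK3), an atypical and unstable MAP kinase, had the highest mean level of all members in control liver, at 64.1 and 51.03 FPKM, and 45.5 and 39.3 in LPS libraries without a call (−0.43, adjusted p = 0.106).

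Of the 7 scaffolds, downstream kinases and other genes, 2 were called, both lower, beside 31.4% of all tested genes called lower. MAPK8IP1 (JIP1), a scaffold that holds JNK with its activators, fell 4.31-fold from 6.35 and 7.30 to 1.36 and 1.81 FPKM (log2 fold change −1.60, SE 0.21, limma adjusted p = 0.00110). MAPK8IP3 (JIP3), another JNK scaffold that also binds kinesin, was at 2.31 and 2.503 and at 1.07 and 1.45 FPKM (−0.60, adjusted p = 0.0622). MAP3K7CL, named for its likeness to the C-terminal part of MAP3K7 and not a kinase itself, fell from 3.94 and 5.19 to 1.08 and 0.648 FPKM (−1.58, SE 0.24, adjusted p = 0.00197). With an LPS mean of 0.865 FPKM, MAP3K7CL passed the filter through its control libraries.

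The p38 substrate MAPKAPK2 (MK2), which stabilises cytokine messages in mammals, was among the most abundant members, at 34.9 and 43.4 FPKM in control and 39.8 and 56.1 in LPS libraries. Its groups overlapped (log2 fold change 0.27, limma adjusted p = 0.344). MAPKAPK3 (MK3), a relative with similar targets, was at 19.1 and 12.6 and at 26.3 and 22.1 FPKM (0.60, adjusted p = 0.0684). It was called higher at equal medians (0.88, adjusted p = 0.0199). MAPKAPK5 and MAPKAP1, the latter a subunit of the TOR complex 2 despite its name, had no call. In this group 0 genes were called higher by limma, beside 10.7% of all tested genes. At unadjusted limma p under 0.05, 1 was higher and 4 lower, and the share of all tested genes at that threshold was not counted.

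**Figure D2:**
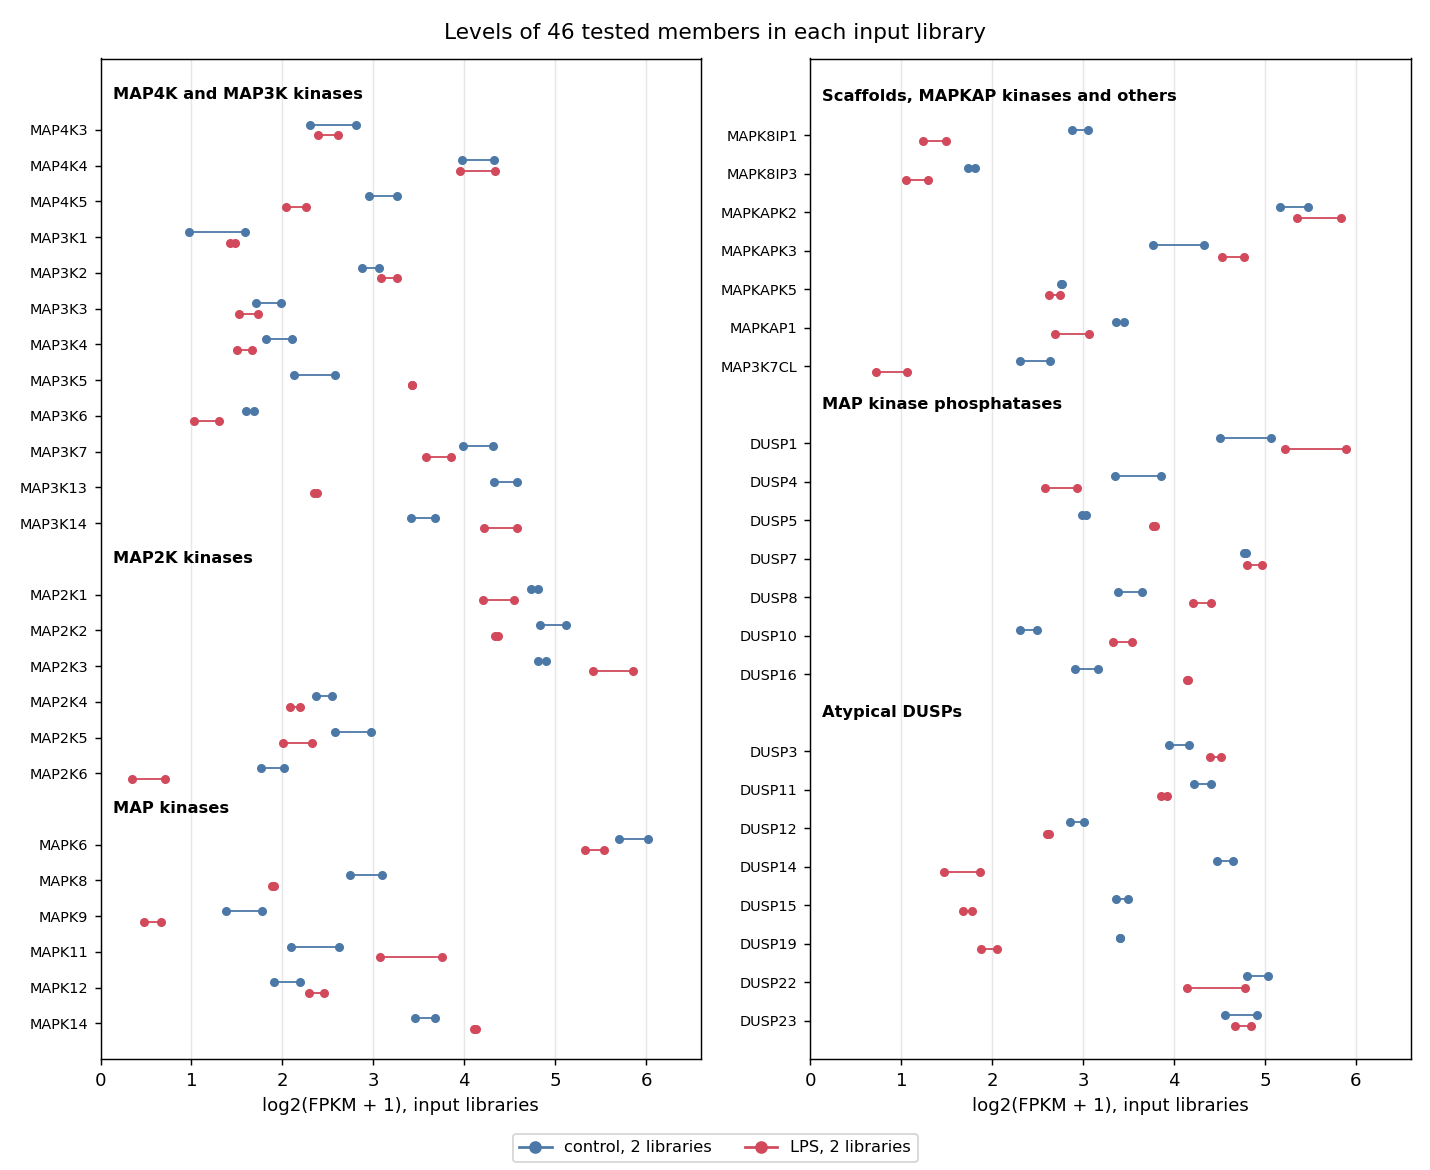
Level of 46 of the 47 tested members as log2(FPKM + 1) in the 2 control and 2 LPS input libraries, 1 point a library, grouped by role. DUSP14, MAP3K13 and MAPK8IP1 show wide gaps with the LPS libraries on the left, DUSP10 and DUSP16 smaller gaps with the LPS libraries on the right, and both groups of MAP4K4 and DUSP23 overlap.

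Of the 7 MAP kinase phosphatases measured, 4 rose, 1 fell and 2 had no call by limma. Over all tested genes, 10.7% were called higher and 31.4% lower. At equal medians 5 were called higher, and the fall of DUSP4 was no longer called. Both LPS libraries lay above both controls for 6 of the 7, beside 18.4% of all tested genes. The median log2 fold change was 0.77, beside −0.34 for all tested genes. DUSP8, DUSP10 and DUSP16, which prefer JNK and p38, each rose. DUSP1, which also acts on p38 and JNK, had no call on the deposited scale. DUSP16 (MKP-7) went from 6.49 and 7.97 to 16.8 and 16.7 FPKM (log2 fold change 1.11, SE 0.19, limma adjusted p = 0.00322). DUSP10 (MKP-5) was at 3.94 and 4.61 FPKM in control and at 9.05 and 10.6 in LPS libraries (1.04, SE 0.20, adjusted p = 0.00527). Of the 9 rises, these 2 and that of MAP3K5 were called under all 9 alternatives tried. DUSP8 was at 9.43 and 11.6 and at 17.5 and 20.2 FPKM (0.79, SE 0.19, adjusted p = 0.0144), and lost its call when control library 1 (0.0535) or LPS library 2 (0.0886) was left out.

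The inducible nuclear phosphatases differed among themselves. DUSP5, which acts on ERK, had close replicates, at 7.18 and 6.95 FPKM in control and 12.6 and 12.8 in LPS libraries (log2 fold change 0.77, SE 0.18, limma adjusted p = 0.0122). With an LPS library left out its change was 0.78 or 0.76, and the adjusted p 0.0617 or 0.0764. DUSP1 (MKP-1), the best known brake on p38 and JNK after LPS in mice, was at 21.8 and 32.5 FPKM in control and at 36.3 and 58.5 in LPS libraries. Its LPS libraries lay on top by a narrow margin, and its change of 0.77 (SE 0.28) missed the threshold (adjusted p = 0.0561). It passed at equal medians (1.05, adjusted p = 0.0246), with the replicate number as a block (0.0104), and when control library 2 (0.0468) or LPS library 1 (0.000638) was left out. Its change was 0.49 (adjusted p = 0.247) with control library 1 left out and 0.43 (0.249) with LPS library 2 left out. DUSP4 (MKP-2) fell from 9.23 and 13.5 to 4.99 and 6.61 FPKM (−0.85, SE 0.24, adjusted p = 0.0241). DUSP4 was not called at equal medians (adjusted p = 0.115) or with no filter (0.0620), nor when control library 2 (0.0993) or LPS library 1 (0.102) was left out. DUSP7, a cytoplasmic ERK phosphatase, was at 26.7 and 26.2 and at 26.8 and 30.2 FPKM (0.10, adjusted p = 0.658). DUSP6, its closest relative, was not analysed here, as no gene of that name was in the expression table.

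The atypical DUSPs are small phosphatases that lack the kinase-binding domain of the class above, and several of them act on other substrates. Of the 8 tested, 0 rose and 3 fell by limma, beside 10.7% and 31.4% of all tested genes. At equal medians 1 rose and 3 fell, beside 14.2% and 15.9% of all tested genes. At unadjusted limma p under 0.05 the counts were 0 and 4, and the share of all tested genes at that threshold was not counted. DUSP14 (MKP-6), which in mice restrains T cell receptor and TAK1 signalling, showed the largest change of all members. It was at 24.1 and 21.2 FPKM in control libraries and at 2.63 and 1.78 in LPS libraries, a 10.3-fold fall (log2 fold change −2.90, SE 0.21, limma adjusted p = 7.37e-05). DUSP15 fell from 10.2 and 9.27 to 2.43 and 2.20 FPKM (−1.70, SE 0.20, adjusted p = 0.000579). DUSP19, a phosphatase that binds kinases of the JNK branch, fell from 9.57 and 9.56 to 3.15 and 2.67 FPKM (−1.44, SE 0.19, adjusted p = 0.00119). For each of these the LPS libraries lay far below the controls, and each fall was called under all 9 alternatives.

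The 5 without a call lay between −0.45 for DUSP22 and 0.40 for DUSP3. DUSP3 (VHR), which acts on ERK and JNK, was at 16.9 and 14.4 and at 21.9 and 20.0 FPKM, and was called at equal medians (0.68, limma adjusted p = 0.0251). DUSP11, which acts on the 5′ triphosphate of RNA rather than on proteins, was at 17.6 and 20.2 and at 14.1 and 13.4 FPKM (−0.43, adjusted p = 0.0920). DUSP23 was at 22.7 and 29.0 and at 24.5 and 27.8 FPKM, groups that overlap.

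The 8 members below the filter were MAP3K9, MAP3K15, MAPK13, MAPK15, DUSP13, DUSP26, DUSP27 and DUSP28, with at most 2.74 FPKM in any library. DUSP26 held that value in control library 2 and 0.958 in control library 1, and was listed at 0 in both LPS libraries. MAP3K9, a mixed-lineage kinase like MAP3K13, was at 0.429 and 0.478 FPKM in control and 0.0562 and 0.0972 in LPS libraries. DUSP13 was at 0.606 and 1.09 FPKM in control and 0.257 in LPS library 1, and was listed at 0 in LPS library 2.

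Other genes of the pathway, from 6 lists of 144 names of which 105 matched and 97 were tested, gave 21 higher and 25 lower calls, and 28 and 16 at equal medians. That is 21.6% and 25.8% of the 97, beside 10.7% and 31.4% of all tested genes, and at equal medians 28.9% and 16.5%, beside 14.2% and 15.9%. Of the 16 tested around TRAF proteins and TAK1, which pass signals from Toll-like and TNF receptors to MAP3Ks, 6 rose and 2 fell. The largest rises were TIFA, an adaptor that brings TRAF6 together (log2 fold change 3.98), the ubiquitin ligase BIRC2 (3.31) and TRAF2 (2.63). The falls were IRAK4 (−0.93), a receptor-associated kinase, and 1 of 2 entries named gadd45 (−1.31). That entry was matched to GADD45A, an activator of MAP3K4 in mammals. The other gadd45 entry, matched to GADD45G, had no call (−0.48, limma adjusted p = 0.562). Of the 18 upstream receptors and Ras regulators, 1 was called higher, EGFR (0.60), and 6 fell, led by FGFR2 (−2.53), FGFR4 (−1.24) and FGFR3 (−1.22), receptors for fibroblast growth factors. At equal medians these counts were 4 and 3. Of the 13 Raf kinases and scaffolds, 2 rose, KSR1 (1.03), a scaffold of the ERK branch, and YWHAZ (0.71). The 4 that fell were led by TAOK3 (−1.45), a kinase upstream of the stress branches, the MEK scaffold LAMTOR3 (−1.14) and TAOK1 (−0.90). At equal medians 3 were called higher and 2 lower, and TAOK1 had no call (−0.63, limma adjusted p = 0.0704).

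Downstream, among 7 tested, RPS6KA1 (RSK1), a kinase activated by ERK, rose (1.44 on the log2 scale), as did the small heat shock protein HSPB1 (0.99). The ERK and p38 target kinase MKNK1 fell by 1.11 and the RNA-binding ELAVL1 by 0.56. At equal medians 2 were called higher and 1 lower, and ELAVL1 had no call (−0.28, limma adjusted p = 0.299). Of 21 tested transcription factors that MAP kinases act on, 5 were higher and 5 lower, beside 10.7% and 31.4% of all tested genes. ATF3 (3.66), BATF3 (3.63) and FOSL2 (2.71) rose, and EGR1 (−1.91), MEF2C (−1.47) and MEF2D (−1.45) fell. Of the 22 other negative regulators tested, 5 rose, led by TNFAIP3 (3.47), the pseudophosphatase STYXL1 (1.65) and TRIB2 (1.46). The 6 that fell were led by PTPRR (−2.67), a tyrosine phosphatase of ERK and p38, the ERK inhibitor SPRY2 (−1.39) and PTPN7 (−0.94), another MAP kinase phosphatase. At equal medians the counts of this list were 8 and 3, beside 14.2% and 15.9% of all tested genes. PTPN7 had no call on that scale (−0.67, limma adjusted p = 0.0637). PTPRR went from 5.99 and 6.94 FPKM to 0.160 and 0.176. STYXL1 passed the filter through its LPS libraries alone, and MKNK1, MEF2C and PTPRR through their control libraries alone.

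The m6A peaks of the members come from 1 list for each treatment, with no replicate spread, so fold enrichment (IP over input, the authors' value for each peak) is given without a test. A peak counted as shared when its exon blocks overlapped a peak of the other list on the same strand by at least 1 base. The genome build of the coordinates is not given in the sources used here. In control liver 25 of the 55 members had a peak and in LPS liver 18, all of them among the 25. That is 45.5% and 32.7% of the members, beside 37.5% and 29.7% of all genes of the expression table. These genes carried 42 control and 30 LPS peaks. Of the control peaks 28 were shared (66.7%, beside 64.1% of all control peaks), and of the LPS peaks 28 (93.3%, beside 87.6% of all LPS peaks). A shared count can match several peaks with 1, as in DUSP16, where control peaks 5 and 6 along the chromosome were joined into 1 LPS peak.

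Of the control peaks of members, 21 were annotated to a 3′ UTR, 5 to a 5′ UTR and 16 to another exon, and of the LPS peaks 16, 6 and 8. The share in 5′ UTRs was 11.9% and 20.0%, beside 7.67% and 7.09% of all peaks, and rested on few peaks, of which 1 LPS peak, that of DUSP11, lies mostly outside its gene. The median fold enrichment was 6.16 over the control peaks and 5.28 over the LPS peaks, beside 5.51 and 4.99 for all peaks. Over the 28 shared control peaks, the LPS value was lower for 18 and higher for 10, with a median log2 ratio of −0.24, the same as the −0.24 over all 5006 shared control peaks.

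**Figure D3:**
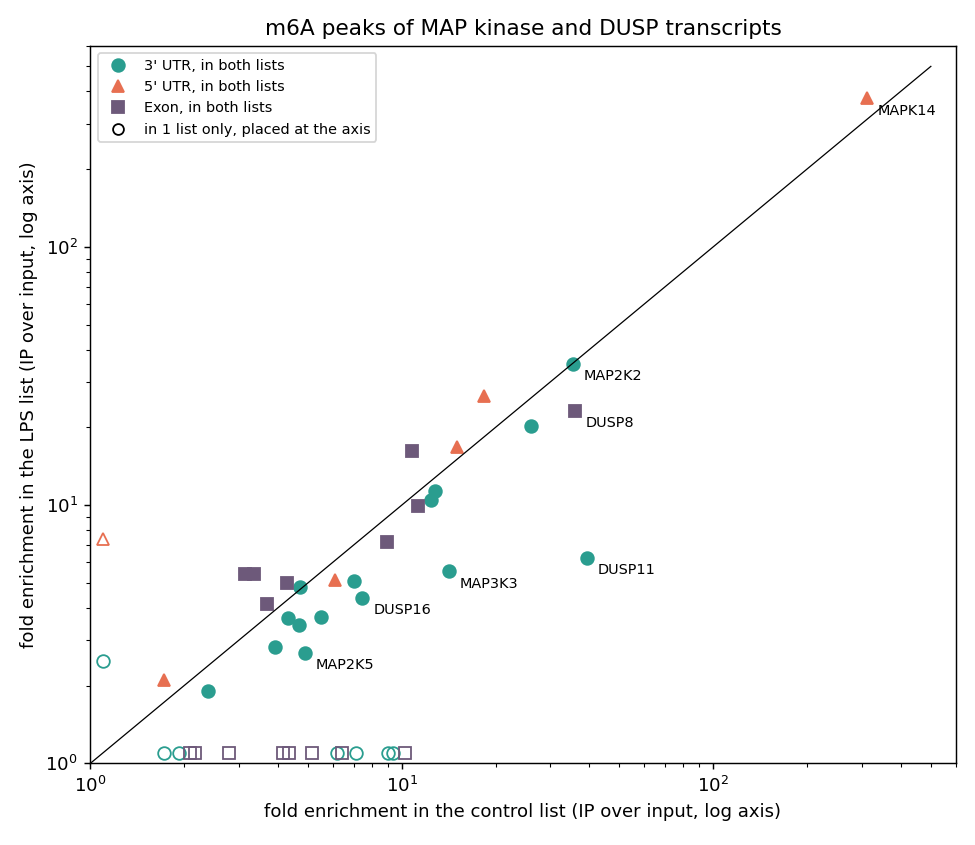
Fold enrichment of each m6A peak of the members in the control list (horizontal) and the LPS list (vertical), both on log axes, with symbols for the authors' annotation, filled for peaks in both lists and open at the axis for peaks in 1 list. Most shared peaks lie near the line of equality, MAPK14 stands alone at 311 and 376, and DUSP11 lies farthest below the line at 39.4 and 6.25.

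The highest enrichment was that of MAPK14. Its only peak, in the 5′ UTR on the plus strand of chromosome 26 (positions 134415 to 134744 in the control list), had a fold enrichment of 311 in control and 376 in LPS liver. By fold enrichment it ranked 25 of 7813 control peaks and 10 of 5938 LPS peaks. By the authors' peak p-value it was not first among members. Its log10 value was −93.8 in control and −120 in LPS liver, against −1490 and −1100 for a DUSP7 peak at 12.8 and 11.3. The kinase that acts after MAPK14, MAPKAPK3, also had a 5′ UTR peak (chromosome 12, 1840648 to 1841168 in control), at 18.3 and 26.5. It had a 3′ UTR peak as well, at 7.04 and 5.10. MAPKAPK2 had 1 peak in its 3′ UTR (chromosome 26, 2494283 to 2494642), with the same ends in both lists and an enrichment of 4.72 and 4.80. MAP2K2, the ERK activator, had a 3′ UTR peak with the same ends in both lists (chromosome 28, 2565126 to 2565453) at 35.5 and 35.3. MAP2K3 had a weak one in its 3′ UTR, at 2.39 and 1.91.

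The phosphatases that rose in expression carried peaks in both lists. DUSP16 had 6 control and 4 LPS peaks, most of them in its 3′ UTR on chromosome 1. Its strongest (72049013 to 72049792 in control) was at 25.9 in control and 20.2 in LPS liver, another went from 7.47 to 4.38, and the joined peak toward the coding exons was at 5.42 after LPS, against 3.14 and 3.34 in control. DUSP8 had 2 peaks in its last exon (exon 6 of 6, chromosome 5), and the stronger one, with the same ends in both lists (13563926 to 13564314), was at 36.0 and 23.1. DUSP5 had 1 in its 3′ UTR at 4.32 and 3.65. DUSP10 shared 1 peak that begins in exon 2 of 4, at 4.29 and 5.01. It had another exon 2 peak in the control list alone, at 4.35, and a short 3′ UTR peak in the LPS list alone, at 2.5. DUSP7, without a change in expression call, had 2 shared 3′ UTR peaks, the stronger at 12.8 and 11.3.

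Of the upstream kinases, MAP3K14 had the most peaks, 4 in each list. The control peak over its 3′ UTR (chromosome 27, 1407798 to 1409085) was at 12.4, and 2 LPS peaks overlapped it, at 3.09 and 10.5. MAP4K4 had 1 peak that begins in exon 12 of 32, at 10.8 in control and 16.2 in LPS liver. MAP3K3 had a peak toward its 3′ end that was at 14.2 in control and 5.53 in LPS liver. MAP2K5 had 1 in its 3′ UTR at 4.87 and 2.68, with 359 and 60 bases of exon. MAPK6, the most abundant member, had 2 peaks annotated to its 5′ UTR, at 6.10 and 5.14 and at 1.72 and 2.10.

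Control peaks without an LPS partner numbered 14, with a median enrichment of 4.74, beside 7.26 for the 28 that were shared. They belonged to 7 genes with no LPS peak at all (DUSP1, DUSP12, DUSP14, DUSP15, MAP3K4, MAP3K7 and MAPK8IP3) and to DUSP10, DUSP16, MAP3K13 and MAP3K14. DUSP14 had a 3′ UTR peak on chromosome 19 (8591837 to 8592251) at 9.05 and a second in its only exon at 2.78, both in control alone, and its level went from 22.7 ± 2.07 to 2.21 ± 0.606 FPKM (SD, n = 2). DUSP15 had a peak at 10.2 in control alone, and its level was 9.75 ± 0.673 FPKM in control and 2.32 ± 0.162 in LPS libraries. MAP3K13 kept 1 of 3 peaks, that of its 3′ UTR, at 5.50 in control and 3.69 in LPS liver. The lost one in exon 2 of 15 had an enrichment of 6.41. MAPK8IP3 had 2 control 3′ UTR peaks, at 9.35 and 7.12, and neither in LPS liver. For DUSP1 the single control peak, in its 3′ UTR, was weak at 1.93. Whether lower input levels set the absence of LPS peaks was not tested.

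LPS peaks without a control partner numbered 2, the short DUSP10 peak named above and a peak assigned to the 5′ UTR of DUSP11. The DUSP11 peak (chromosome 22, 2781448 to 2785014, fold enrichment 7.42) holds 1357 bases of exon blocks, of which 31 lie inside the gene, whose start is at 2783575, and 1326 lie before it. Of these, 1056 bases overlap a peak of the same list assigned to ENSGALG00000018879 on the other strand, with a fold enrichment of 7.46. In the control list, a peak over 1269 of the same bases was assigned to ENSGALG00000018879, at 11.8. The 3′ UTR peak of DUSP11, in contrast, was shared. It showed the largest ratio between the lists of any shared member peak, at 39.4 in control and 6.25 in LPS liver. These values cover 449 bases of exon in control and 270 in LPS liver, and the authors' log10 peak p-values were −47.8 and −35.1. Expression of DUSP11 was at 18.9 ± 1.79 and 13.8 ± 0.494 FPKM (SD, n = 2).

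**Figure D4:**
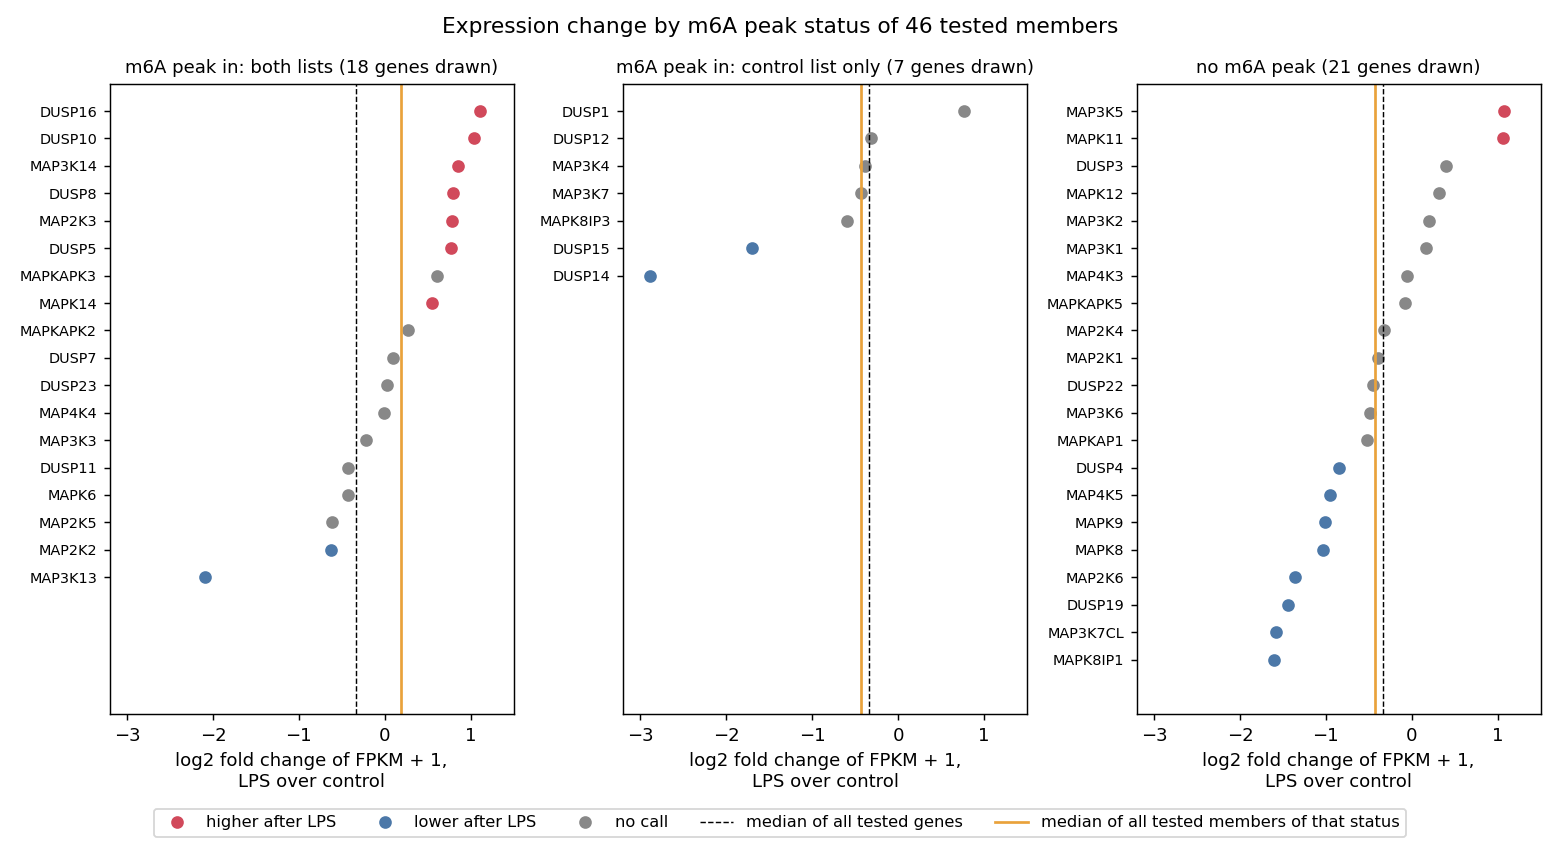
Log2 fold change of FPKM + 1 (LPS over control) of 46 of the 47 tested members, split by whether the gene had an m6A peak in both lists, in the control list alone or in neither. Of the 9 called rises, 7 lie in the panel of genes with peaks in both lists, and of the 12 called falls, 8 lie in the panel without peaks.

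Set by peak status, the 18 genes with peaks in both lists had 7 rises, 2 falls and a median log2 fold change of 0.19. Of all 3578 tested genes with peaks in both lists, 12.4% rose and 29.4% fell, with a median of −0.28. Of the 7 genes with control peaks alone, 2 fell by limma and none rose, DUSP1 being the one at an unadjusted p under 0.05 in the upward direction, and the median was −0.44. Of all 1215 tested genes of that kind, 1.32% rose and 52.3% fell, with a median of −0.65. The 22 tested genes without a peak had 2 rises and 8 falls, with a median of −0.43, beside 9.29% and 29.1% of all 4382 tested genes without a peak and a median of −0.33. Genes with peaks in both lists had a median control level of 16.4 FPKM, those with control peaks alone 9.75, and the 30 members without a peak 4.36, with 8 of these 30 below the filter. The ranges overlapped, from 2.62 FPKM upward in the genes with peaks in both lists and up to 29.3 FPKM in those without a peak. The part of the level in this split was not tested. MAPK8, MAPK9, MAP2K6, MAPK8IP1 and DUSP19, all of which fell, had no peak in either list, and neither had MAP3K5 and MAPK11, which rose.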

How the data were processed

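Input and IP libraries were placed into 4 groups of 2 by their labels; since LPS is the one treatment the labels name, table columns headed as treatment were read as LPS. The submitters' processing notes name ChIPseeker, HISAT2, HOMER and StringTie. Which step each served, the peak caller and the genome build were not given in the sources used here. FPKM values were deposited for the 4 input libraries, and per treatment 1 peak list in which each peak has the authors' fold enrichment (the ratio of IP over input) and a p-value, deposited by the authors on a log10 scale. An exact repeat was dropped from each list, leaving 7813 and 5938 peaks.

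Levels of the 2 treatments were compared in R 4.3.3 by limma 3.58.1 (trended prior variance, log2(FPKM + 1), mean of at least 1 FPKM), which understates changes of low genes. The mean is over all input libraries, so a gene can pass through its higher group alone. Fold changes given as such are ratios of mean FPKM. Relative depth is the commonest ratio between libraries of FPKM values under 0.1, shared by 10 to 12 genes. Pathway names were matched by symbol or RefSeq accession (GRCg7b table, names only). Peaks were compared in Python 3.11.15 with pandas 2.3.3. Alternatives were the pseudocount, the filter, equal medians, a replicate block, a constant prior, each library left out and, for peaks, stricter thresholds. Members with values in every library were the 10 largest rises and falls among called genes and a fixed set; other called members are named, and members without a call or peaks beyond the listed ones were chosen after their values were seen. The members and lists were chosen with earlier results of these data known. The values of 1 tested member, which is included in all fits and counts, are not reported here.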

Additional observations from a re-analysis of the deposited data

How the results depend on the processing

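Across 9 alternatives, 3 of the 9 rises (MAP3K5, DUSP10 and DUSP16) and 8 of the 12 falls kept their call in all. With 1 library left out, where the lone library of a group is assumed to vary like the others, the number of members called higher ranged from 5 (without LPS library 2) to 9, and that of members called lower from 10 to 12; other pathway genes ranged from 16 to 20 higher and 19 to 22 lower. At equal medians, 16 other pathway genes were lower, against 25. With the replicate number as a block, 11 members were called higher and 12 lower. The shares of all tested genes with the block or with 1 library left out were not counted, so these member counts have no background beside them. The labels do not say that a shared number marks a shared bird or batch, so the numbers were not taken to pair the libraries. The deviations of same-numbered libraries correlated at 0.0292 over 9484 genes, which with 2 libraries a group cannot decide whether they were paired. Among peaks with a fold enrichment of at least 4, 18 control and 18 LPS peaks of members were shared, against 28 and 28. With 2 libraries a group, whether a change is called depends on its spread as well as its size, as for DUSP1 (0.77, SE 0.28, not called) and DUSP5 (0.77, SE 0.18, called). Peaks have no replicate spread.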
